A study of Mus musculus with 4 samples.

Results

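The lipid-sensing and xenobiotic-sensing nuclear receptors of the liver and their PGC-1 coactivators were examined after intranasal GALP. They are 10 genes: Ppara, Ppard, Pparg, Rxra, Nr1h2, Nr1h3, Nr1i2, Nr1i3, Ppargc1a and Ppargc1b. Every probe that the array carries under these symbols was taken, whatever its value, which gave 14 probes of 41037 with a value on all arrays, and 10 of 26518 gene names. GALP (galanin-like peptide) is a hypothalamic neuropeptide that acts on feeding and body weight. All mice were male C57BL/6J with diet-induced obesity (DIO), at least 40 g in weight after 14 weeks on a high-fat diet, bought at 8 weeks of age. They were given porcine GALP (1 nmol, in saline with 5% α-cyclodextrin) or saline through the nose in 2 µL, daily for 11 days. Liver RNA of 4 GALP-treated mice of the greater weight loss group was pooled, as was that of 4 GALP-treated mice of the less weight loss group. Each of these pools was co-hybridised with a pool of 8 saline-treated control mice on a pair of dual-colour Agilent arrays, GALP being in Cy5 on one and in Cy3 on the other. Since 1 pair of arrays measures 1 pair of extracts, its values were averaged, and errors are the SD over the GALP pools (n = 2). How single mice varied within a pool cannot be seen. The control pool stands under every ratio, and no error given here includes its variation from other control mice.

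PPARα, PPARδ and PPARγ (Ppara, Ppard, Pparg) are receptors for fatty acids and their derivatives. In liver PPARα drives fatty acid oxidation and ketone body formation, while PPARγ favours lipid storage and its level is known to be raised in fatty liver. LXRβ and LXRα (Nr1h2, Nr1h3) respond to oxysterols, and PXR and CAR (Nr1i2, Nr1i3) respond to xenobiotics and bile acids. All of them bind DNA with a retinoid X receptor, of which RXRα (Rxra) is the main form in liver. PGC-1α and PGC-1β (Ppargc1a, Ppargc1b) have no DNA-binding function of this kind and act by docking on such receptors, with PGC-1α known for its induction in fasting and its action on gluconeogenesis and mitochondrial genes.

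The probes that the results turn on are shown here by their first 30 bases of 60, in lower case with no base marked, 5′ to 3′, as the scanner files give them. They are shown because 2 separate probes read Ppargc1a, whereas Ppara, Pparg and Nr1i3 each rest on a single probe sequence.
Ppara: caatgttaatcaatgcacagcactctacgt
Pparg: gcaggaaagtcccacccgctgacaacgtgt
Nr1i3: aagagaagagatagatcagctacaagagga
Ppargc1a, brighter probe: attcatttatcaccagcatattgtgttctg
Ppargc1a, dimmer probe: ccccttcaaatggcagcatttccatgaaga
On the mm9 build these probes lie at chr15:85631955-85632014 (Ppara), chr6:115440213-115440272 (Pparg) and chr1:173147776-173147835 (Nr1i3), all on the plus strand. The Ppargc1a probes lie on the minus strand at chr5:51846897-51846956 and chr5:51848928-51848987, with 2031 bases between their starts, so they share no base. The exon or UTR that holds each probe was not determined here, for want of an annotation of that build. RefSeq gives the accession of each of the 14 probes to the same gene symbol.

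None of the receptors or coactivators was called higher or lower after GALP. The methods name a p-value below 0.01 from the Feature Extraction software, folds of 1.5 and 0.75 and changes common to both groups, without saying on how many arrays p must hold. Read strictly here, a probe was called where all 4 arrays had the same direction and passed p, and each pool passed the fold. This rule called 0 of the 14 probes, against 0.0585% of all probes called higher and 0.132% called lower. At such shares 0 calls among 14 probes is also the number nearest to the background. Within the greater weight loss pool alone 0 of the 14 were called (background 0.297% higher and 0.395% lower), and within the less weight loss pool alone 0 were called (background 0.234% higher and 0.366% lower). No member reached the p threshold on any array, and 13.3% of all probes did so on at least 1. The 14 probes are too few to set the members apart from that share. In limma on the 2 pool ratios, with Benjamini-Hochberg adjustment, 0 of 41037 probes passed an adjusted p of 0.05 (0.00%), members included. That test has 1 residual degree of freedom, its smallest adjusted p over all probes was 0.374, and 4759 probes, 3 of them members, fell under 0.05 before adjustment.

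Of the 14 probes, 13 were well above background in all 8 channels, and the exception was the Ppard probe. Over these 13 probes the median size of the mean log2 ratio was 0.083, against 0.097 over the 14445 probes that met the same condition. The single-array log2 ratios of the 13 ranged from -0.53 to 0.52. The widest mean was -0.38, and 6.01% of the 14445 probes lay farther from 0. One probe of the 13 was higher on all 4 arrays (background 11.8%) and 2 were lower on all 4 (background 16.0%). The former read Nr1i3 and both of the latter read Ppargc1a.

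**Figure D1:**
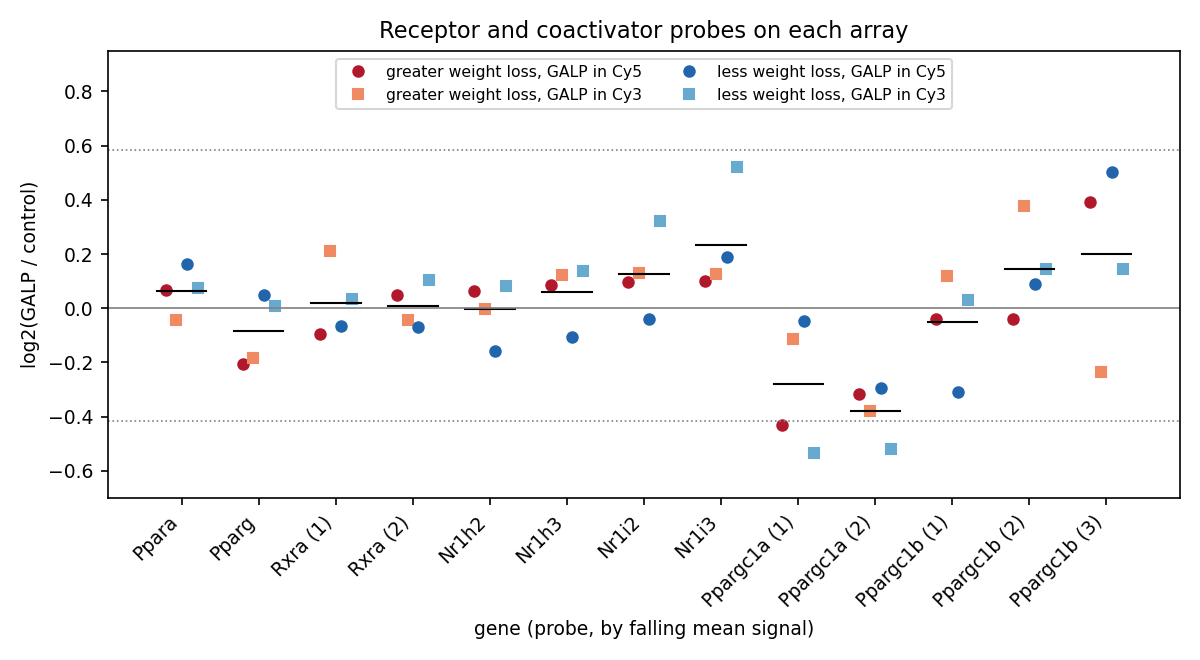
The log2 ratio of GALP over control (vertical axis) is plotted for each of the 13 probes well above background (horizontal axis), with a point for each array, coloured by pool and shaped by dye, and a black bar for the mean of the pools. Dotted lines mark the folds 1.5 and 0.75. Points of most probes straddle 0, both Ppargc1a probes lie below 0 on all 4 arrays, and Nr1i3 lies above 0 on all 4.

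Ppara, the fatty acid oxidation receptor, was read by 8 to 10 spots an array. Its processed signals in the greater weight loss pool were 15193 and 11030 for GALP, beside 14511 and 11356 for control on the same arrays. In the less weight loss pool they were 14475 and 13073 for GALP, beside 12939 and 12405 for control. GALP and control signals thus overlapped over the arrays. The log2 ratios were 0.07 and -0.04 in the greater weight loss pool and 0.16 and 0.08 in the less weight loss pool. Their mean was 0.07 ± 0.08 (SD, n = 2 pools), a fold of 1.05 with a 95% interval from limma of 0.863 to 1.27 and an adjusted p of 0.702. Repeat spots on 1 array had an SD of 0.047 to 0.092 in log2 ratio, while the array means ran from -0.04 to 0.16.

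Pparg, the lipid storage receptor, was also read by 8 to 10 spots. GALP signals were 2902 and 2509 in the greater weight loss pool, below the control signals of 3345 and 2851 on the same arrays. In the less weight loss pool they were 3686 and 3159, beside 3563 and 3141 for control. The log2 ratios were -0.21 and -0.18 in the greater weight loss pool and 0.05 and 0.01 in the less weight loss pool. Both arrays of the former were below 0 and both arrays of the latter just above it. The mean over the pools was -0.08 ± 0.16 (SD, n = 2), with an adjusted p from limma of 0.783. In the greater weight loss pool each of the 8 repeat spots was below 0 on both arrays, with the highest at -0.11. The difference between the pools was -0.22 (greater minus less weight loss) and was not tested, as each side is 1 pool.

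Ppard, the third PPAR, had a single probe that was not well above background in any of the 8 channels. Its processed signals ran from 5.02 to 11.3, Feature Extraction set its ratio to 0 on all 4 arrays, and no fold is given. Its level in these livers could not be measured with this probe.

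Rxra, the shared dimer partner, had 2 probes with 3095 bases between their starts on chr2. The brighter gave log2 ratios of -0.10 and 0.21 in the greater weight loss pool and -0.06 and 0.03 in the less weight loss pool. The dimmer gave 0.05 and -0.04, then -0.07 and 0.10. Each probe was above 0 on 2 arrays and below it on 2. Means were 0.02 ± 0.05 and 0.01 ± 0.01 (SD, n = 2 pools). The limma interval of the dimmer probe ran from 0.966-fold to 1.05-fold, and that of the brighter from 0.887-fold to 1.16-fold.

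The LXRs had 1 probe each. Nr1h3 (LXRα) gave log2 ratios of 0.09 and 0.12 in the greater weight loss pool and -0.11 and 0.14 in the less weight loss pool, with a mean of 0.06 ± 0.06 (SD, n = 2) and a fold of 1.04. Nr1h2 (LXRβ) gave 0.06 and -0.00, then -0.16 and 0.08, with a mean of -0.00 ± 0.05. In both genes the array of the less weight loss pool with GALP in Cy5 was the lowest and its dye swap the highest. The dye orientations of that pool differed by 0.24 in each gene, which is more than the pool means differed from 0. Over the 14445 probes the median gap between dye orientations was 0.18 in the greater and 0.22 in the less weight loss pool.

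PXR (Nr1i2) gave log2 ratios of 0.10 and 0.13 in the greater weight loss pool and -0.04 and 0.32 in the less weight loss pool. Its pool means were close together, at 0.11 and 0.14, with a mean of 0.13 ± 0.02 (SD, n = 2). The limma interval ran from 1.03-fold to 1.16-fold with an adjusted p of 0.388. The dye orientations of the less weight loss pool lay 0.36 apart, a spread that the average of the pair takes out of that interval. With normexp and loess the mean was 0.03, with the greater weight loss pool at -0.02.

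CAR (Nr1i3) was the receptor with the highest mean ratio. GALP signals were 1402 and 1256 in the greater weight loss pool beside 1307 and 1151 for control. In the less weight loss pool they were 1576 and 1448 beside 1383 and 1010. The log2 ratios were 0.10, 0.13, 0.19 and 0.52 in the same order. The GALP signal was above the control signal on all 4 arrays, and on the last of them by the most, with the smallest Feature Extraction p of any member on any array, 0.0135. The mean was 0.23 ± 0.17 (SD, n = 2 pools), a fold of 1.18 with an interval from 0.767 to 1.80 and an adjusted p of 0.671. The difference between the pools was -0.24 (greater minus less weight loss) and, like that of Pparg, was not tested.

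**Figure D2:**
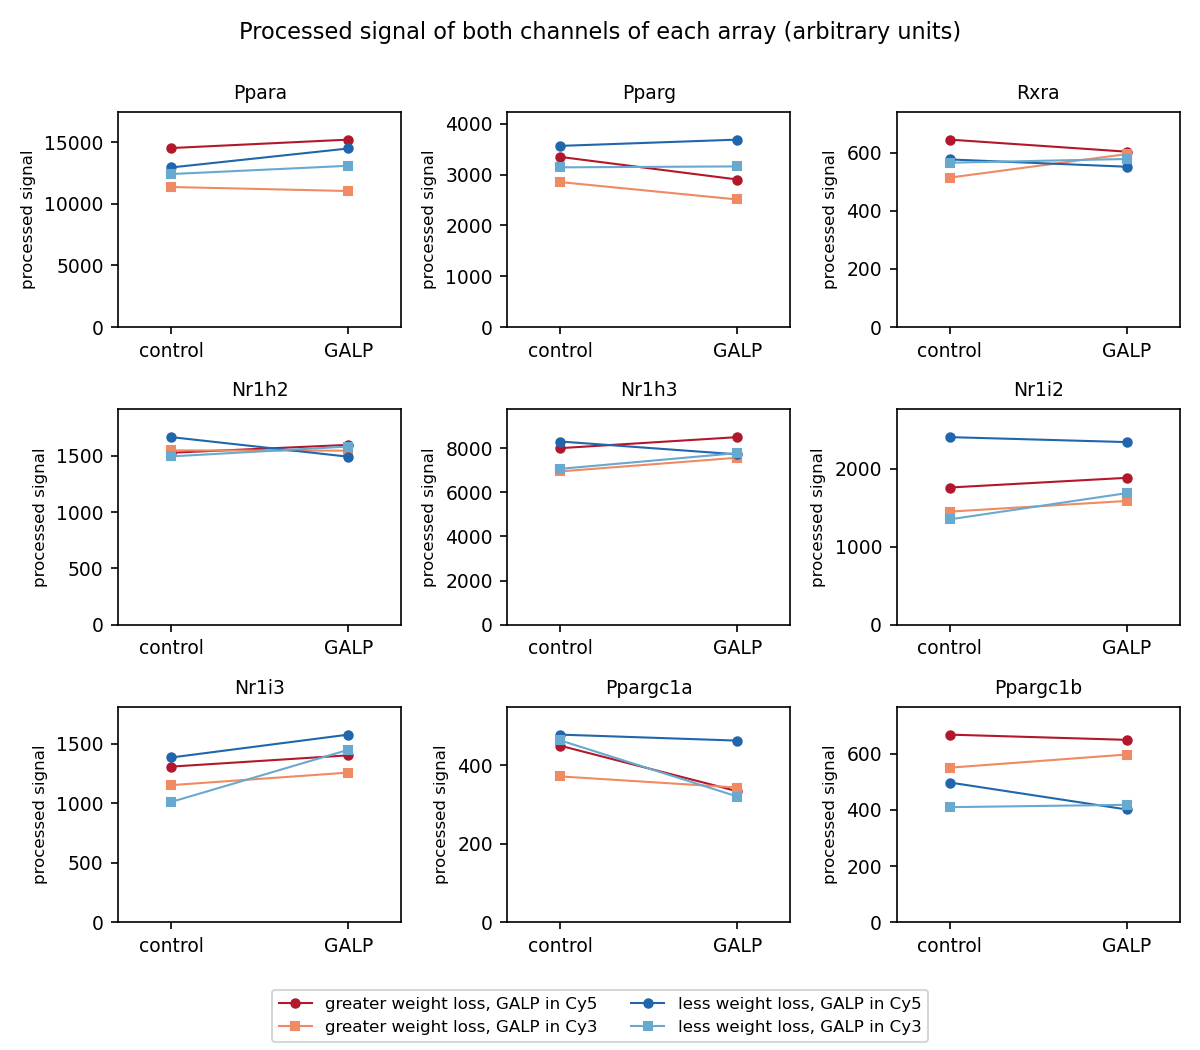
The processed signal in arbitrary units (vertical axis, from 0) of the control and GALP channels is joined by a line for each of the 4 arrays, in a panel for each gene with a probe well above background (the brightest probe of the gene). Lines run close to level in Ppara, Rxra, Nr1h2 and Nr1h3, go up on all 4 arrays in Nr1i3 and down on all 4 in Ppargc1a. Panels have their own scales, and signals of different probes are not comparable.

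Ppargc1a (PGC-1α) had the lowest mean ratios of the 10 genes, on both of its probes, though not the lowest ratio on every single array. The brighter gave GALP signals of 333 and 343 in the greater weight loss pool, beside 449 and 371 for control, and 462 and 320 in the less weight loss pool, beside 478 and 463 for control. Its log2 ratios were -0.43, -0.11, -0.05 and -0.53. The dimmer gave -0.32 and -0.38 in the greater and -0.29 and -0.52 in the less weight loss pool. Every one of these 8 ratios was below 0, and on the brighter probe 2 of them were near it. Means were -0.28 ± 0.01 (SD, n = 2 pools; 0.823-fold, interval 0.786 to 0.862) and -0.38 ± 0.04 (0.770-fold, interval 0.690 to 0.858). Both had the adjusted p of 0.374 in limma that 1721 probes shared as the smallest of the table. The intervals rest on the close agreement of the pool means. The dye orientations of the brighter probe lay 0.32 apart in the greater and 0.49 apart in the less weight loss pool, far more than the pool means did. Neither probe met the fold of 0.75 in either pool, and the smallest Feature Extraction p was 0.0146 for the brighter and 0.0164 for the dimmer. With normexp background correction and loess in place of the deposited ratios, the means were smaller, at -0.13 for the brighter and -0.17 for the dimmer probe. Each is outside the interval given above for its probe.

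Ppargc1b (PGC-1β) had 3 probes, which did not lie on the same side of 0. The brightest gave a mean log2 ratio of -0.05 ± 0.13, the next 0.14 ± 0.04 and the dimmest 0.20 ± 0.17 (SD, n = 2 pools). The dimmest had log2 ratios of 0.39 and -0.24 in the greater weight loss pool and 0.50 and 0.14 in the less weight loss pool, so its dye orientations opposed each other in the former. The mean over the 3 probes was 0.10, opposite in sign to the brightest. No direction is given for this gene.

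The 5 genes with array ratios most like those of Ppargc1a were Ces3b, Ints7, Slc22a28, Meis2 and Pde12. Likeness was the Euclidean distance over the 4 array log2 ratios from the brighter Ppargc1a probe, among 10650 other genes well above background in all channels. Distances ran from 0.083 for Ces3b to 0.14 for Pde12, which is no more than the typical gap between dye orientations of 1 pool.

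Ppargc1a is also expressed in skeletal muscle, and the skeletal muscle markers differed between the pools. All 5 of them (Acta1, Ckm, Myh4, Tnnt3, Mylpf) were well above background in each control channel and in the GALP channels of the greater weight loss pool, and 3 of 5 in those of the less weight loss pool. Their summed signal was 1678 and 2275 in the greater weight loss pool, 263 and 325 in the less weight loss pool and 1363 to 1616 in control. Tnnt3, a fast muscle troponin, had log2 ratios of 0.36 and 0.31 in the greater and -2.92 and -2.84 in the less weight loss pool. The brighter Ppargc1a probe had mean log2 ratios of -0.27 in the greater and -0.29 in the less weight loss pool, and the part of muscle RNA in them was not tested. RNA was from bulk liver, in which fewer cells of a type and less RNA per cell cannot be told apart.

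Pparg is abundant in adipocytes and is also expressed in macrophages, so both marker lists were read. Of 6 adipocyte markers (Adipoq, Lep, Retn, Plin1, Slc2a4, Cfd), 3 to 4 were well above background on an array, and Lep and Retn were at background in all channels. Their summed signal was 420 and 536 in the greater weight loss pool, 294 and 403 in the less weight loss pool and 501 to 535 in control. Adipoq had a mean log2 ratio of 0.38 in the greater and -0.26 in the less weight loss pool. The median over the 4 adipocyte markers with signal was 0.37 in the greater and -0.50 in the less weight loss pool. Of the 3 adipocyte markers well above background in all channels, 1 was lower on all 4 arrays. The 6 macrophage markers (Clec4f, Adgre1, Cd68, Marco, Csf1r, Vsig4) were well above background in all channels, with a summed signal of 14739 to 18834 for GALP and 13012 to 14415 for control. Marco, a scavenger receptor of macrophages, was called higher, at 1.05 in the greater and 0.69 in the less weight loss pool, whereas the Kupffer cell marker Clec4f had a mean of -0.00. The part of these cell types in the Pparg ratio was not tested. The hepatocyte markers with a probe (Alb, Ttr, Apoa1, Ahsg, Cps1) were well above background in all channels, with a median log2 ratio of 0.05. The 6 stomach and intestine markers had 10 probes, of which 2 were called, Gkn2 and Tff1, both lower after GALP (background 0.132% lower). Only 1 of the 6 was well above background in all channels, with a mean log2 ratio of -0.10. Tff3 lay above 0 on both arrays of the greater weight loss pool and below 0 on both of the less weight loss pool.

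**Figure D3:**
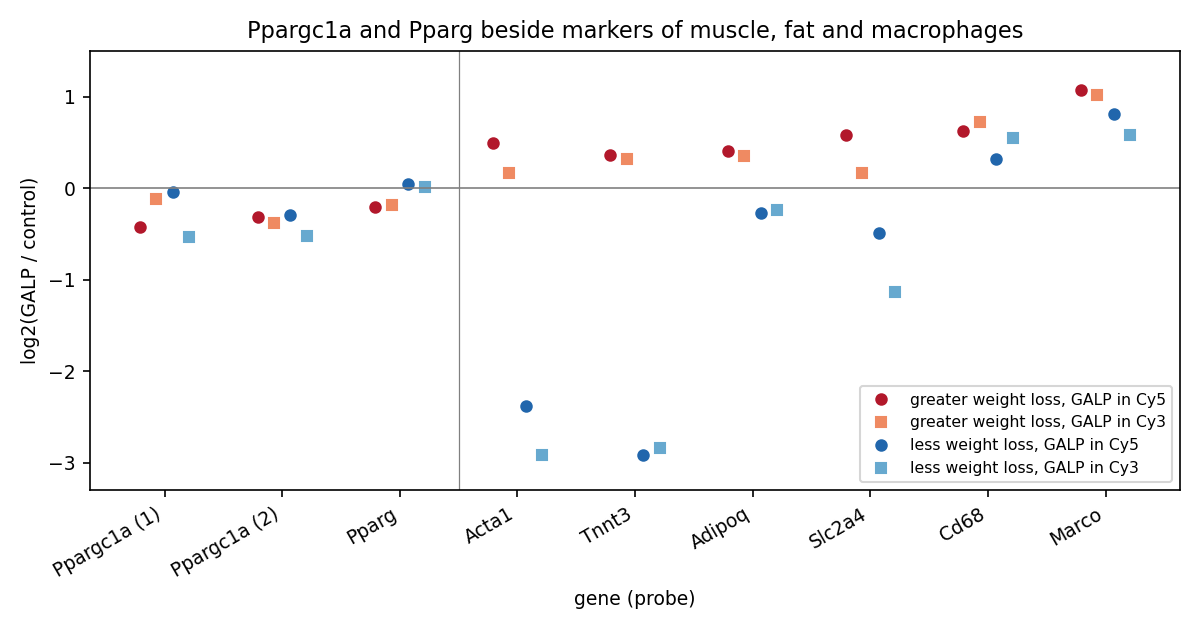
The log2 ratio of GALP over control (vertical axis) is plotted on each array for Ppargc1a and Pparg (left of the line) and for 6 markers of muscle (Acta1, Tnnt3), fat (Adipoq, Slc2a4) and macrophages (Cd68, Marco). Colours mark the pools and shapes the dyes. The muscle markers lie above 0 in the greater and between -2.92 and -2.38 in the less weight loss pool, whereas Ppargc1a lies between -0.53 and -0.05 in both.

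Other nuclear receptors that pair with the members or act beside them had 0 of 17 probes called. Their median log2 ratio over the 8 of 10 genes with signal was 0.02, beside 0.01 over all 16345 genes with signal on the array, each gene taken by its brightest probe. Rxrb, a second retinoid X receptor, had a mean of 0.11 ± 0.14 (SD, n = 2 pools), and Nr1h4, the bile acid receptor FXR, 0.11 ± 0.16. Nr0b2 (SHP), a repressor that FXR induces, had -0.21 in the greater and -0.59 in the less weight loss pool. The arrays of the greater weight loss pool were on opposite sides of 0 for Nr0b2, at 0.04 and -0.46. Esrra, the partner of PGC-1α in mitochondrial gene expression, had 0.22 ± 0.08 on its brightest probe and was above 0 on all 4 arrays, but its other probe had -0.04 ± 0.11.

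Coactivators and corepressors had 0 of 40 probes called, with a median of 0.07 over 16 genes. Lpin1, which PGC-1α induces and which acts with it on PPARα, stood highest, and its 4 probes ran from 0.30 to 0.37. Those probes gave 0.35 to 0.45 in the greater and 0.24 to 0.29 in the less weight loss pool. Ncoa1 (SRC-1) had -0.07 ± 0.12 and Nrip1 (RIP140) -0.05 ± 0.10 (SD, n = 2 pools). Ncor1, a corepressor of unliganded receptors, had -0.04 ± 0.01 on its brightest probe but -0.41 ± 0.07 on the next, so its probes disagreed.

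Target genes were read in 5 lists, each by the brightest probe of a gene. Over the table, 13.1% of 10651 genes well above background in all channels were higher on all 4 arrays and 14.8% were lower on all 4. Among the 9 member genes that met this condition 1 was higher and 1 was lower on all 4. The lists describe transcripts only, and a list's count is not a test of its receptor.

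PPARα targets had 1 of 28 probes called, higher, and none lower. Their median log2 ratio was 0.06 over 20 genes, at 0.05 in the greater and 0.16 in the less weight loss pool. The called gene was Acot1, a cytosolic acyl-CoA thioesterase, with log2 ratios of 0.66, 0.61, 0.73 and 0.72 and a fold of 1.60. Its probe may also bind RNA of related thioesterase genes, which was not tested. On all 4 arrays 8 of the 20 were higher and 0 lower. Cyp4a10, a fatty acid hydroxylase, had 0.02 ± 0.28 (SD, n = 2 pools). Cpt1a, which admits fatty acids to mitochondria, had 0.24 ± 0.13 and Cyp4a14 0.15 ± 0.15. Pdk4, which restrains glucose oxidation, had 0.08 in the greater and -0.37 in the less weight loss pool, and Fgf21, a fasting hormone, -0.08 and -0.55.

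PPARγ targets had 0 of 15 probes called and a median of 0.32 over 7 genes with signal. By pool the median was 0.32 in the greater and 0.28 in the less weight loss pool. Cidec, which enlarges lipid droplets, had log2 ratios of 0.57, 0.92, 0.53 and 0.99 and a fold of 1.68. It met the fold in both pools and the p threshold on 3 of 4 arrays. The genes higher on all 4 arrays were Cidec, Plin4 and Fabp4, of which the last were named after their values had been seen. Cd36, a fatty acid translocase, had -0.08 in the greater and 0.28 in the less weight loss pool. Mogat1, a monoacylglycerol acyltransferase, had -0.33 and 0.09, and its other 2 probes had -0.28 and 0.19 and -0.30 and 0.19. Cidea, the lowest of the list, had -0.67 and 0.24.

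**Figure D4:**
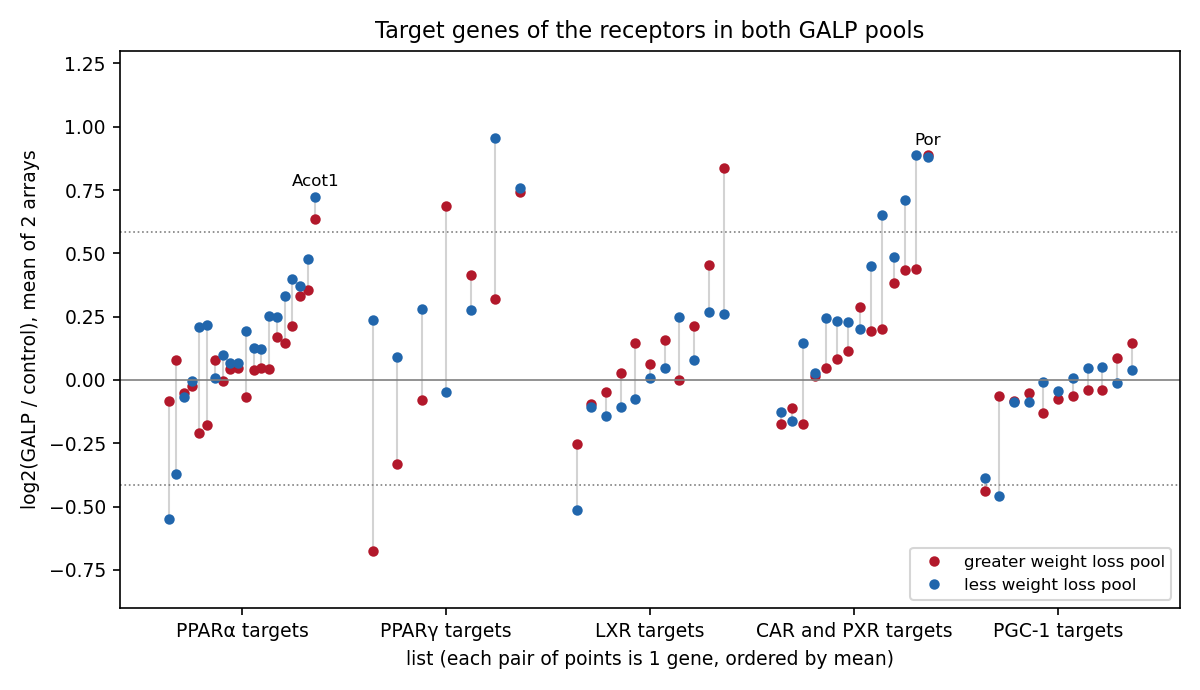
The mean log2 ratio of GALP over control (vertical axis) in the greater (red) and less (blue) weight loss pool is plotted for each gene of 5 lists of receptor or coactivator targets, with a grey line joining the pools of a gene. Only genes well above background in all channels are drawn, dotted lines mark the folds 1.5 and 0.75, and the called genes Acot1 and Por are named. Most PGC-1 targets lie near 0, and Por lies at 0.89 and 0.88 in the pools.

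LXR targets had 0 of 17 probes called, with a median of 0.04 over 11 genes. Abca1 and Abcg5, sterol transporters, each had a mean of 0.04 (± 0.04 and ± 0.16, n = 2 pools). Srebf1, the lipogenic regulator, had -0.25 in the greater and -0.51 in the less weight loss pool and was below 0 on all 4 arrays. Cyp7a1, the rate-limiting enzyme of bile acid synthesis, had 0.84 and 0.26 on its brighter probe and 0.64 and -0.07 on the other. The brighter Cyp7a1 probe met the rule in the greater weight loss pool alone. Srebf1 and Cyp7a1 lay on opposite sides of 0.

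CAR and PXR targets had 1 of 19 probes called, higher, and a median of 0.21 over 14 genes, at 0.15 in the greater and 0.24 in the less weight loss pool. Por, the reductase that passes electrons to microsomal cytochromes P450, was the called gene. Its GALP signals were 9573, 7371, 9143 and 9004, against control signals of 5201, 3969, 4931 and 4931, so the groups did not overlap. Its log2 ratios were 0.88, 0.89, 0.89 and 0.87, a fold of 1.84. On all 4 arrays 8 of the 14 genes were higher and 0 lower. Alas1, the first enzyme of haem synthesis, had 0.57 ± 0.20 (SD, n = 2 pools) and 0.56 ± 0.14 on its 2 probes, and both probes met the rule in the less weight loss pool but not in the other. Cyp2b10, the most used CAR target in mouse liver, was dim, with mean signals of 136 and 105 on its probes, which gave 0.66 ± 0.32 and 1.02 ± 0.33. With normexp and loess these means were only 0.21 and 0.23. Its near relatives in the Cyp2b family may share these probes, which was not tested. Cyp3a11, the usual PXR target, had 0.24 ± 0.06. The lowest of the list was Cyp2c29, at -0.15 ± 0.03.

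PGC-1 targets had 0 of 22 probes called and a median of -0.06 over 11 genes. G6pc, the last step of glucose release, had -0.44 in the greater and -0.39 in the less weight loss pool and was below 0 on all 4 arrays, as Ppargc1a was. It passed the p threshold on 1 array. Cycs (cytochrome c) had -0.07 ± 0.09 and Tfam, a mitochondrial transcription factor, -0.07 ± 0.03 (SD, n = 2 pools). The highest of the list was Atp5b, an ATP synthase subunit, at 0.09 ± 0.08. Pck1 was not analysed here.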

How the data were processed

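Images of the slide were read by the authors with Agilent Feature Extraction (12.0.3.1 per the file headers), which corrected background and dye bias and gave each channel a processed intensity. The submitters' processing notes name 11.0.1.1 instead. The deposited log10 ratio is Cy5 over Cy3. The deposited p-value of each spot comes from the error model of that software and compares the extracts on 1 array only. The authors' series table gives log10 ratios as GALP over control and served as an alternative. Its values for the members were the same on rounding, save for the Ppard probe at background. That probe had log2 ratios there of 0.11 in the greater and 0.17 in the less weight loss pool.

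All ratios were put on the log2 scale with GALP as numerator. Spots marked as outliers were dropped and spots of a probe averaged (median p), with a probe well above background where at least 0.5 of its spots were. The test was limma 3.58.1 (lmFit and eBayes, R 4.3.3), with tables in Python 3.11.15, pandas 2.3.3 and numpy 2.4.6. The rule and the test were also tried on simulated data, with the spread for the test taken from the pool ratios of these data. The outcome of those trials is not reported here. With 43379 spots an array, precision is limited by the number of pools, 2 of GALP and 1 of control. The 2 arrays of a pool carry the same extracts. The labels give the control channel a weight loss group too, but the methods describe 1 control pool. The members, lists and tests were chosen with earlier results of these data known. Genes named are all members, every called list gene and a set of well-known targets and partners whatever their values, beside the highest and lowest of a list. Some genes of the lists had no probe under their symbol and were not analysed here. Results for a few of the well-known targets are not reported here. Alternatives were normexp (offset 50) with loess, centring, the series table, outlier marks kept, each dye orientation or pool alone, other p rules, a signal filter, limma with a trend or with the pool as a random block, and a mean over a gene's probes.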

Additional observations from a re-analysis of the deposited data

Results flagged for a closer look

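In 4 of the receptor and target genes named, both arrays of the greater weight loss pool lay on one side of 0 and both arrays of the less weight loss pool on the other. The log2 ratio of the greater minus the less weight loss pool was -0.22 for Pparg, -0.40 for Cyp4a10, -0.42 for Mogat1 and -0.91 for Cidea. For Cyp4a10 the other 3 probes differed by less between the pools, whereas the 3 Mogat1 probes all lay lower in the greater weight loss pool. Among the cell type markers the same held for 6 genes, all higher in the greater weight loss pool. The differences were 0.32 for Apoa1, 0.63 for Adipoq, 1.18 for Slc2a4, 2.98 for Acta1, 3.04 for Tff3 and 3.21 for Tnnt3. None of these differences was tested, since each side is 1 pool against the same control. The share of all probes that split in this way was not counted, so the 4 and 6 genes cannot be set against it.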

How the results depend on the processing

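The count of member probes called stayed at 0 in each direction under every alternative that was run, and the limma count of members stayed at 0 as well, with an adjusted p of 0.0823 for the dimmer Ppargc1a probe when the pool was a random block. Of 75 values of 9 member genes under other settings, 12 had the opposite sign. They fell in 5 genes (Pparg, Rxra, Nr1h2, Nr1h3 and Ppargc1b), none with a mean over 0.083 in size. Ppara, Nr1i2, Nr1i3 and Ppargc1a kept their sign, with Nr1i3 at 0.14 on the arrays with GALP in Cy5 alone. With normexp and loess Nr0b2 was at -0.18 and Fgf21 at -0.20, and the arrays with GALP in Cy5 and in Cy3 gave 0.14 and 0.52 for Lpin1 and 0.08 and 0.35 for Esrra. Over all probes, 24 were called higher and 54 lower. The counts were 9 and 26 with normexp and loess, 134 and 140 with GALP in Cy5 alone, 140 and 156 with GALP in Cy3 alone, 53 and 167 with the p threshold on at least 1 array of each pair, and 154 and 360 with no p rule. With a pool left out they ran from 96 to 122 higher and from 150 to 162 lower, since fewer arrays have to pass. Among probes of the target and partner lists 2 were called higher and 0 lower. The higher count was 1 with normexp and loess, where Acot1 was lost, 5 with GALP in Cy5 alone (1 lower), 4 with p on at least 1 array of each pair, 5 with no p rule and 6 to 7 with a pool left out (0 to 1 lower). In limma 0 probes passed. With the signal filter 0 were higher and 1 lower, and with the pool as a random block 39 were higher and 67 lower. The random block fit, which also gave the 0.0823 above, took all 4 arrays as observations. Dye swaps of the same extracts thus entered it, so its counts cannot be set beside those from the 2 pool ratios. Each array already sets GALP against control. The labels mark a dye swap, which pairs the arrays of a pool, and the main setting averaged that pair. Since the labels number no replicates, no further pairing was made.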
